A study of Mus musculus with 4 samples.

Results

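The T, NK and innate lymphoid cells of the cerebellar subdural meninges were taken as the barcodes that carried transcripts of lymphocyte genes, and there were 204 of them among 38722 kept barcodes (0.527%). A barcode is the tag of 1 droplet, which normally holds 1 cell, and a UMI is 1 counted transcript molecule. To be kept, a barcode needed 500 or more genes, 1000 or more UMIs, and no more than 10% of its UMIs from mitochondrial genes. A kept barcode was counted as lymphoid where it had a UMI of at least 2 of 8 genes (Cd3e, Cd3g, Trbc2, Il7r, Nkg7, Il2rb, Gata3 and Thy1, hereafter the rule genes), at least 1 UMI of Ptprc, the pan-leukocyte phosphatase CD45, none of the B cell gene Cd79a, and at most 2 UMIs of the macrophage genes C1qa and Mrc1 together. The barcodes were thus chosen by their measured transcripts of these genes, so the presence of these genes describes the selection and is no finding. Of the lymphoid barcodes, 37 and 83 came from NdpKO replicates 1 and 2, and 30 and 54 from NdpWT replicates 1 and 2.

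Transcripts of single cells were counted from their 3' ends in droplets (10x Genomics) in 4 libraries, 2 of the genotype NdpKO; Neurod2-SmoA1+/- and 2 of the genotype NdpWT; Neurod2-SmoA1+/-. Every mouse, the NdpWT ones included, carried SmoA1, an activated form of the Hedgehog transducer Smoothened, under the Neurod2 promoter, which drives it in granule neurons of the cerebellum and not in lymphocytes, so there was no group free of the transgene. Ndp encodes norrin, a secreted ligand that signals through Fzd4 and maintains the barrier of brain and retinal vessels. The mice were of C57/BL6 background and were days 6 to 8 after birth by the sample fields and days 7 to 9 by the protocol. Each library was a pool of 5 cerebella, with 3 litters per run and runs of the genotypes matched by litter. The dura stayed on the skullcap, choroid plexus was left aside, Dispase II at 2.5 mg/mL freed the cells, and a 22% Percoll layer separated them by density. All of these steps can set the share of a cell type.

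T cells recognise antigen through a receptor of alpha and beta chains, or of gamma and delta chains, that signals through the CD3 subunits, and CD4 and CD8 mark the helper and cytotoxic branches of alpha beta T cells. NK cells and innate lymphoid cells (ILC) carry no rearranged receptor: NK cells and ILC1 kill or make interferon gamma, ILC2 depend on GATA3, respond to IL-33 through its receptor ST2 (Il1rl1) and make IL-13 and amphiregulin, and ILC3 make IL-22. In young mice, gamma delta T cells that make IL-17 and ILC are known to settle in the meninges early in life, and naive T cells recirculate through blood and lymph with the help of Ccr7 and S1pr1.

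The libraries held 123270687 and 125981161 UMIs in NdpKO replicates 1 and 2 and 114363848 and 121735724 UMIs in NdpWT replicates 1 and 2. Ndp itself, over all kept barcodes, had 0.398 and 0.472 counts per 1000000 UMIs (CPM) in the NdpKO libraries and 2.07 and 1.40 CPM in the NdpWT libraries, and no UMI in lymphoid barcodes of any library. NdpKO replicate 1 stood apart in quality, since 21.8% of its barcodes were over the mitochondrial limit, against 7.58% to 10.4% in the others. Between libraries, 156 kept barcode sequences were shared, none of them lymphoid. The median lymphoid barcode had 11050 and 8914 UMIs in NdpKO replicates 1 and 2, and 6912 and 5072 UMIs in NdpWT replicates 1 and 2. In NdpWT replicate 1 a single barcode of 121212 UMIs made up 34.8% of all lymphoid UMIs, and in NdpKO replicate 2 a barcode of 86558 UMIs made up 9.30%. Sums over barcodes are therefore also given without those over 50000 UMIs where that moved a statement.

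Lymphoid barcodes were more frequent in both NdpKO libraries than in either NdpWT library. They were 0.650% (95% interval 0.458 to 0.894, exact binomial) and 0.762% (0.608 to 0.944) of kept barcodes in NdpKO replicates 1 and 2, against 0.322% (0.217 to 0.459) and 0.421% (0.317 to 0.549) in NdpWT replicates 1 and 2. These intervals describe counting error alone. The groups did not overlap, with means of 0.706% ± 0.0797 in NdpKO and 0.372% ± 0.0703 in NdpWT (SD, n = 2 each), a ratio of 1.90. The 2-sided exact permutation test gave p = 0.333, the smallest value that 2 against 2 libraries allow, so a difference of any size could not pass the 0.05 threshold. Of barcodes with a UMI of Ptprc, lymphoid barcodes made up 5.49% and 9.78% in the NdpKO libraries and 2.63% and 5.14% in the NdpWT libraries, and on this scale the lower NdpKO library lay just above the higher NdpWT library. Lymphoid barcodes were also the deeper ones in NdpKO, and with every kept barcode thinned to 1000 UMIs the rule found 0.193% and 0.285% in NdpKO replicates 1 and 2 and 0.150% and 0.140% in NdpWT replicates 1 and 2. These are shares of captured cells, and more lymphoid cells or fewer other cells cannot be told apart.

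**Figure D1:**
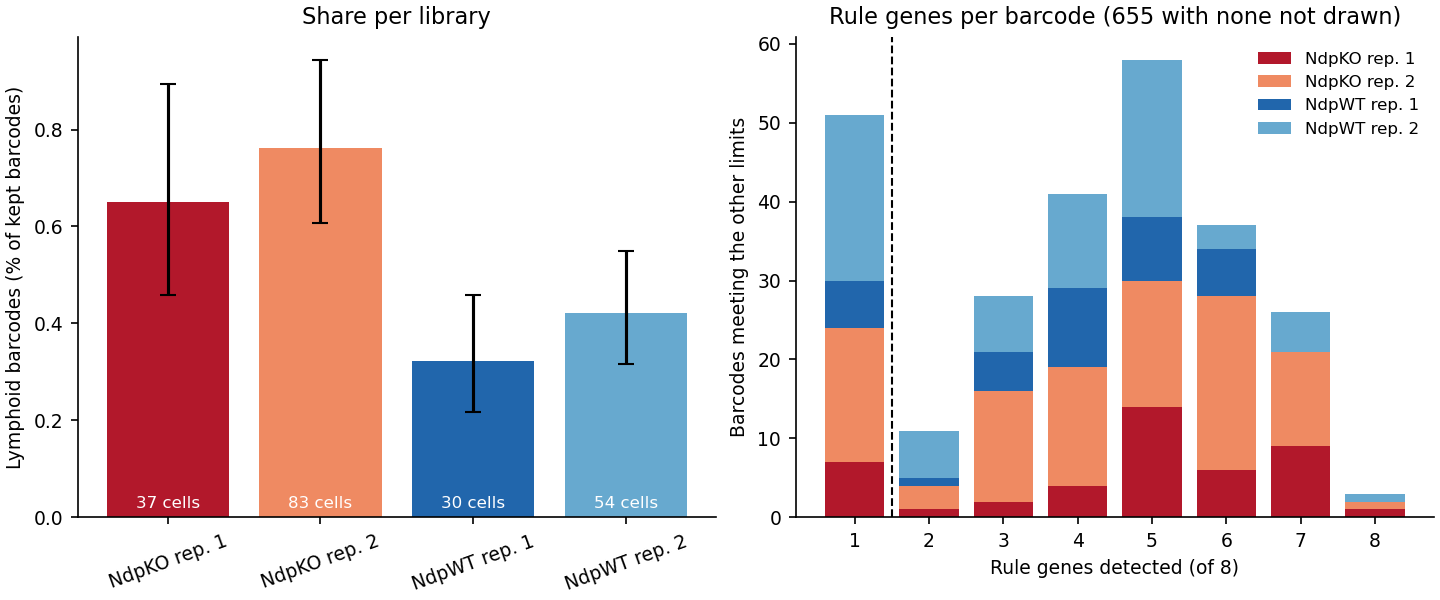
Left: lymphoid barcodes as a percent of kept barcodes in each library, with exact 95% binomial intervals as error bars; both NdpKO bars (0.650% and 0.762%) are above both NdpWT bars (0.322% and 0.421%). Right: number of barcodes that meet the limits on Ptprc, Cd79a, C1qa and Mrc1 by how many of the 8 rule genes they carry, stacked by library, with the 655 barcodes that carry none left out; the dashed line is the limit of the rule, and the bar just inside it, 11 barcodes with exactly 2 rule genes, is lower than those on either side.

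The label was checked with 10 lymphocyte genes that the rule did not use, among them Cd3d, Trac, Trbc1, Lck, Cd247, Cd2, Cd7, Ltb and Skap1. Among barcodes that met the other limits, 655 carried no rule gene, 51 carried 1, 11 carried 2, and the numbers then climbed to a second peak of 58 barcodes with 5. The 165 barcodes with 4 or more rule genes carried a median of 6 of the 10 other genes, and 161 of them carried 3 or more. The 11 barcodes just inside the limit carried a median of 2 and 3 of them carried 3 or more, while the 51 just outside carried a median of 0, with none of the 10 in 33. The 11 barcodes on the lowest step of the rule thus carried the fewest other lymphocyte genes.

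The B cell genes Ms4a1, Pax5 and Igll1, and Cd79a by the rule, were at 0 UMIs in lymphoid barcodes of every library. The other 5 of the 10 B cell markers had UMIs in 119 of the 204 barcodes, with 5 or more UMIs in 14, mainly of Ighm (in 86) and Ebf1 (in 34). The B cell markers summed to 115 and 132 CPM in NdpKO replicates 1 and 2 and to 215 and 143 CPM in NdpWT replicates 1 and 2. Rag1, Rag2, Dntt and Ptcra, genes of developing lymphocytes, were at 0 too: no barcode of 204 had Rag1, which allows a share of up to 1.47%. Cd34, of the same list of 6 genes, was found in 13 barcodes, at 7.65 and 16.1 CPM in NdpKO and 106 and 8.10 CPM in NdpWT, where replicate 1 was high. Other cell types left RNA in these droplets. The 10 mast cell and basophil markers summed to 44.0 and 5608 CPM in NdpKO replicates 1 and 2 and to 97.5 and 18.9 CPM in NdpWT replicates 1 and 2, and in NdpKO replicate 2 only 3 barcodes had over 10 UMIs of Cpa3, Mcpt4, Tpsb2 and Cma1 together. The 7 erythroid markers summed to 2258 and 39758 CPM in the NdpKO libraries and 895 and 18538 CPM in the NdpWT libraries, so that replicate 2 of either genotype was high. The 7 endothelial markers stood at 119 and 129 CPM in NdpKO and at 2289 and 138 CPM in NdpWT, where replicate 1 holds the barcode of 121212 UMIs. The 8 fibroblast markers stood at 1577 and 1469 CPM in NdpKO and at 289.7 and 1431 CPM in NdpWT. The 10 monocyte and dendritic cell markers, which include Ccr2 and Ly6c2 that lymphocytes also express, stood at 999 and 777 CPM in NdpKO and at 149 and 456 CPM in NdpWT, with Flt3, Xcr1 and Ifi205 at 0. The part of these other transcripts in the results was not tested.

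The genes with the highest level in lymphoid barcodes over all other kept barcodes were those of the receptor complex, as the rule sets. Trbc2, the constant region of the beta chain, averaged 785 CPM over the 4 libraries against 0.514 CPM in other barcodes and was found in 91.2% of lymphoid barcodes. Of the 25 genes of highest fold, 7 were rule genes and 18 were not. The genes not in the rule included Ms4a4b, a membrane protein of T cells (546 against 0.384 CPM), Cd3d (391 against 0.181 CPM), Trbc1 (364 against 0.107 CPM), the GTPase Gimap3 (244 against 0.196 CPM), the chemokine Ccl5 (569 against 2.18 CPM), the adaptor Skap1 (224 against 0.298 CPM) and lymphotoxin beta, Ltb (455 against 1.67 CPM). These levels describe what was selected and carry no test.

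The rule genes themselves differed in how widely they were found. Trbc2 was detected in 186 of 204 barcodes, Cd3g in 155, Gata3 in 134, Thy1 in 115, Il7r, the IL-7 receptor, in 114, Cd3e in 110, Il2rb, the shared IL-2 and IL-15 receptor chain, in 96, and Nkg7, a granule protein of killer cells, in 78. In meningeal fibroblast barcodes (at least 5 UMIs of Col1a2 and Dcn together and none of Ptprc), which are far deeper with a median of 12018 to 27688 UMIs, Trbc2 was found in 0.119% to 0.289%, Cd3g in at most 0.231%, Gata3 in 0.654% to 2.60% and Thy1 in 2.02% to 3.31%. Cd3e was found there in 0.275% to 1.15%, Il2rb in 0.103% to 0.693%, Il7r in at most 0.146% and Nkg7 in at most 0.0732%. Without Thy1 and Gata3 the rule found 193 barcodes. All 3 CD3 genes (Cd3d, Cd3e and Cd3g) were found in 106 barcodes, 2 of them in 26, 1 in 27, and none in 45.

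The subsets were described by UMIs of Cd4, Cd8a or Cd8b1, the gamma delta constant genes Tcrg-C1 or Trdc, the NK receptor Ncr1 (NKp46) and Il1rl1. Cd4 (chr6:124864692-124888221, minus strand, build GRCm38) was found in 45 barcodes, of which 41 also carried a CD3 gene. Cd8a (chr6:71373427-71379173, plus strand) or its partner chain Cd8b1 was found in 25, all with a CD3 gene. Tcrg-C1 (chr13:19214103-19217024, plus strand) or Trdc was found in 73, Ncr1 (chr7:4337724-4345164, plus strand) in 32 and Il1rl1 (chr1:40429570-40465415, plus strand) in 26. A CD3 gene was also found in 50 of these 73, 20 of these 32 and 8 of these 26. None of the subset genes was found in 41 barcodes. The largest exclusive combinations were Tcrg-C1 or Trdc alone in 42, Cd4 alone in 36 and Ncr1 alone in 21. Cd4 and Cd8 genes together were found in 5.

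Barcodes with Tcrg-C1 or Trdc were 51.4% (19 of 37) and 44.6% (37 of 83) of lymphoid barcodes in NdpKO replicates 1 and 2, against 20% (6 of 30) and 20.4% (11 of 54) in NdpWT replicates 1 and 2. Both NdpKO libraries were higher than both NdpWT libraries. With each barcode thinned to 3000 UMIs, which left out shallower ones and kept 36, 81, 29 and 50 barcodes, the shares were 41.7% and 33.3% in NdpKO and 17.2% and 16% in NdpWT, again with no overlap. In fibroblast barcodes Tcrg-C1 was found in at most 0.115%. Of the 73 barcodes with Tcrg-C1 or Trdc, 23 had no UMI of a CD3 gene. In the groups described below, Tcrg-C1 was found in 18 of 25 ILC2-like and 9 of 9 ILC3-like barcodes. These shares are therefore not shares of gamma delta T cells.

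Ncr1 was found in 27.0% (10 of 37) and 19.3% (16 of 83) of lymphoid barcodes in NdpKO replicates 1 and 2, against 10.0% (3 of 30) and 5.56% (3 of 54) in NdpWT replicates 1 and 2. The thinned shares were 22.2% and 11.1% in NdpKO and 6.90% and 2.00% in NdpWT. The groups did not overlap on either scale, though NdpWT held few such barcodes. The fibroblast share of Ncr1 was at most 0.0577%.

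Cd4 ran the other way: it was found in 13.5% (5 of 37) and 15.7% (13 of 83) of lymphoid barcodes in NdpKO replicates 1 and 2, and in 50% (15 of 30) and 22.2% (12 of 54) in NdpWT replicates 1 and 2. Thinned, the shares were 8.33% and 11.1% in NdpKO and 31.0% and 14% in NdpWT. The groups did not overlap, and the size of the gap rested on NdpWT replicate 1: the NdpKO mean was 21.5 percentage points below the NdpWT mean with it (difference -21.5) and the difference was -7.63 without it. Counted per 1000 kept barcodes, Cd4 barcodes numbered 0.878 and 1.19 in NdpKO and 1.61 and 0.936 in NdpWT, which overlapped.

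Cd8a or Cd8b1 was found in 8.11% and 12.05% of lymphoid barcodes in NdpKO replicates 1 and 2 and in 13.3% and 14.8% in NdpWT replicates 1 and 2, on 3, 10, 4 and 8 barcodes, with intervals that overlapped. Both NdpKO libraries were lower, by less than these intervals. Il1rl1 was found in 5.41% (2 of 37) and 24.1% (20 of 83) in NdpKO replicates 1 and 2, and in 6.67% (2 of 30) and 3.70% (2 of 54) in NdpWT replicates 1 and 2. NdpKO replicate 2 alone was high, and NdpKO replicate 1 lay between the NdpWT libraries. In the groups described below, Il1rl1 was found in 19 ILC2-like barcodes, 4 of those led by histone and neuronal genes and 3 of those led by stromal genes. In NdpKO replicate 2 the ILC2-like group held 14 of the 20 barcodes and 65 of the 93 UMIs, so the 24.1% is not a share of ILC2 alone. The NdpKO mean was 9.57 percentage points above the NdpWT mean, and 5.998 without Thy1 and Gata3 among the rule genes.

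**Figure D2:**
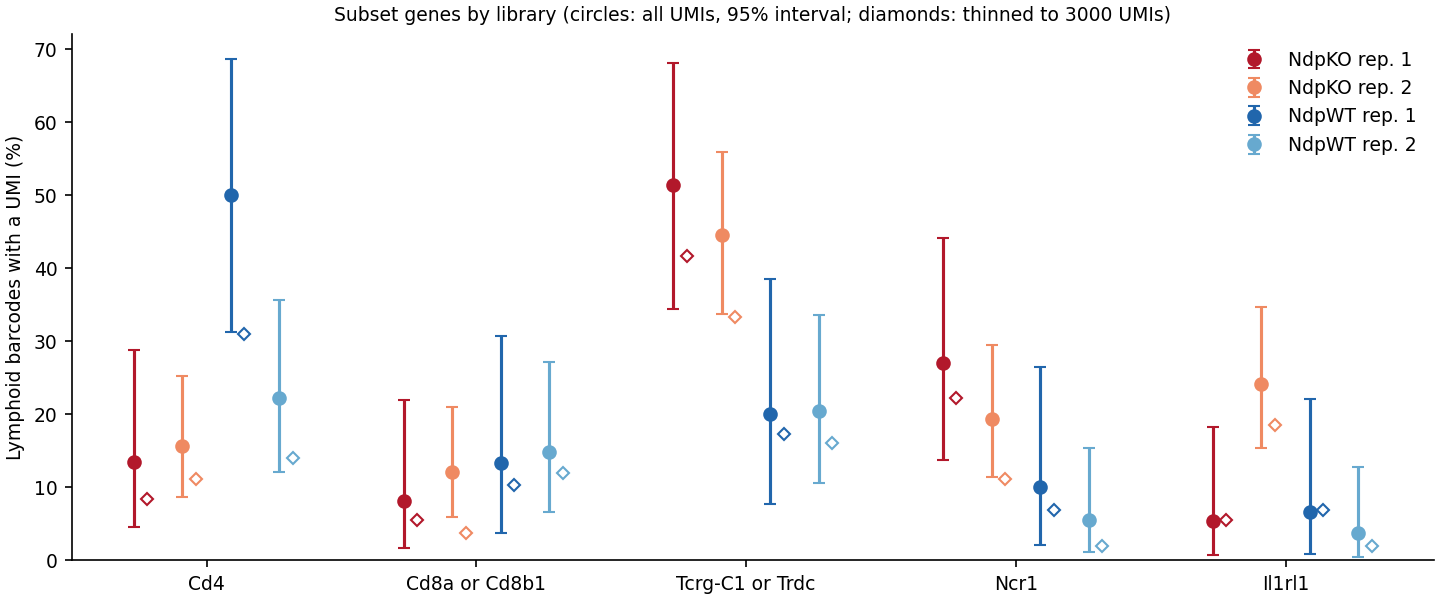
Percent of lymphoid barcodes with a UMI of each subset gene, by library; filled circles use all UMIs, with exact 95% binomial intervals, and open diamonds use barcodes thinned to 3000 UMIs. Tcrg-C1 or Trdc is found in 51.4% and 44.6% of NdpKO barcodes and 20% and 20.4% of NdpWT ones, Ncr1 is also higher in both NdpKO libraries, and Il1rl1 is high in NdpKO replicate 2 alone (24.1%).

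Clustered among themselves, the lymphoid barcodes fell into 8 groups, of which 5 kept the cell type name that fixed markers gave and 3 were left unnamed. The groups were cut from the same transcripts, so their leading genes describe them and carry no test. The largest, CD4 T-like, held 62 barcodes: 8 and 14 in NdpKO replicates 1 and 2, and 14 and 26 in NdpWT replicates 1 and 2. It was led by Ccr7, the lymph node homing receptor (266 CPM against 13.7 CPM in the other lymphoid barcodes), Il6ra (220 against 10.4 CPM), the chromatin organiser Satb1 (811 against 81.0 CPM), Cd5 (223 against 16.4 CPM) and Cd40lg, the CD40 ligand of helper T cells (101 against 2.74 CPM). Klf2, which drives the exit receptors, was found in 57 of the 62, the exit receptor S1pr1 in 50 and Lef1, a factor of naive T cells, in 56. Tcrg-C1 was found in 0 of 62, which allows a share of up to 4.84%, and Foxp3, the regulatory T cell factor, in 1. Cd4 itself was found in 36 and Cd8b1 in 10, so the group is not made of Cd4 barcodes alone. Per 1000 kept barcodes it numbered 1.40 and 1.29 in NdpKO and 1.5 and 2.03 in NdpWT, lower in both NdpKO libraries by a margin that was small for replicate 1 of either genotype.

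The gamma delta T-like group held 16 barcodes, 5 and 3 in NdpKO replicates 1 and 2 and 2 and 6 in NdpWT replicates 1 and 2. It was led by Il17a (451 CPM), the scavenger receptor Cd163l1 (847 against 9.37 CPM), the delta variable gene Trdv4 (514 against 8.38 CPM) and the kinase Blk (278 against 1.48 CPM). Trdc and Tcrg-C1 were each found in 15, Trdv4 in 14 and the IL-23 receptor Il23r in 11. Il17a rested on few cells: 5 barcodes had it, and 59 of the 60 UMIs in NdpKO replicate 1 came from 1 barcode. Its number per 1000 kept barcodes was 0.878 and 0.276 in NdpKO and 0.215 and 0.468 in NdpWT, which overlapped. Fixed markers gave the same name to another group of 29 barcodes, left unnamed below. The overlap thus holds for these 16 barcodes alone.

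The NK and ILC1-like group held 21 barcodes, 8 and 8 in NdpKO replicates 1 and 2 and 2 and 3 in NdpWT replicates 1 and 2. Its leading genes were Xcl1, a chemokine of NK cells (1116 against 79.7 CPM), Ncr1 (436 against 28.6 CPM), the NK receptor Klrb1c (402 against 44.1 CPM) and granzyme A, Gzma (1377 against 206 CPM). Tbx21 was found in 17 and Eomes, which separates NK cells from ILC1, in 10. Trbc2 was found in 20 of the 21 and Trbc1 in 15, while Trac was found in 1 and Cd3e in 1. Per 1000 kept barcodes the group numbered 1.40 and 0.735 in NdpKO and 0.215 and 0.234 in NdpWT, with no overlap.

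The ILC2-like group held 25 barcodes, 3 and 17 in NdpKO replicates 1 and 2 and 2 and 3 in NdpWT replicates 1 and 2, so 1 library gave most of it. Per 1000 kept barcodes it numbered 0.527 and 1.56 in NdpKO and 0.215 and 0.234 in NdpWT, with no overlap. It was led by Csf2, the cytokine GM-CSF (1122 against 25.3 CPM), Areg, the growth factor amphiregulin (342 against 4.22 CPM), Il1rl1 (356 against 15.8 CPM), Il13 (191 against 7.92 CPM) and arginase 1, Arg1 (712 against 62.8 CPM). Gata3 was found in 24 of the 25, and in all 26 lymphoid barcodes with Il1rl1. Receptor transcripts were found as well: Trbc2 in 23, Tcrg-C1 in 18 and Cd3g in 11, yet Cd3d or Cd3e in 0 of 25, which allows a share of up to 12%. Over all lymphoid barcodes, Il1rl1 and Tcrg-C1 were found together in 13, of which 2 and 11 were in NdpKO replicates 1 and 2, and in 0 of 30 and 0 of 54 in NdpWT replicates 1 and 2, which allow up to 10.0% and 5.56%. The UMIs of a constant gene do not show a rearranged receptor, since such genes can be transcribed without one.

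The start regions of Il1rl1 and of the neighbours Cd3g and Cd3d are shown as a description. Gata3, which encodes a GATA factor, was found in every barcode with Il1rl1, and Cd3g in 8 of these 26 with no Cd3d, whose start, on the opposite strand of chromosome 9, lies 1355 bases away. Gata3 and Cd3g are rule genes and Cd3d is not, so which of them are found together is partly set by the selection. Each runs from 250 bases before to 50 after a start (RefSeq, GRCm38.p6, 5' to 3' on the gene's strand). The core GATAA, on either strand (GATAA or TTATC), is in capitals. Il1rl1 has 2 annotated starts here, the upstream one at chr1:40429320-40429619 and the downstream one at chr1:40439379-40439678 (plus strand). Cd3g is at chr9:44980382-44980681 (minus strand) and Cd3d at chr9:44981536-44981835 (plus strand).
Il1rl1 upstream start: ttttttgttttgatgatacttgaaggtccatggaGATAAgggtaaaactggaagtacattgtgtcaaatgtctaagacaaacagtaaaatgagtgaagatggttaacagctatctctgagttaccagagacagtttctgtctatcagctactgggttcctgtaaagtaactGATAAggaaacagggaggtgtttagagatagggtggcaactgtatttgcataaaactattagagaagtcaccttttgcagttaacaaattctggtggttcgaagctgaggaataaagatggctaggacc
Il1rl1 downstream start: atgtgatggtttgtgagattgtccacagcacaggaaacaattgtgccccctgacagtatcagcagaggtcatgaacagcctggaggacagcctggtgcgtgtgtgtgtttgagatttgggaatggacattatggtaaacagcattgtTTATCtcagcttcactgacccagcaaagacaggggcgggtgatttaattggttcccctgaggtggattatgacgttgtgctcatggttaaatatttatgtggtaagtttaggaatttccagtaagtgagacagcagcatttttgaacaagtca
Cd3g: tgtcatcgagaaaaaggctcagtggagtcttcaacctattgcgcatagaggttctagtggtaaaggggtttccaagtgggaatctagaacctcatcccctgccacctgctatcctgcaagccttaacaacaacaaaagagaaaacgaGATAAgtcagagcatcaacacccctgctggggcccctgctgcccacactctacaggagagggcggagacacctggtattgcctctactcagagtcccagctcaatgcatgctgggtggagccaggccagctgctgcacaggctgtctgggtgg
Cd3d: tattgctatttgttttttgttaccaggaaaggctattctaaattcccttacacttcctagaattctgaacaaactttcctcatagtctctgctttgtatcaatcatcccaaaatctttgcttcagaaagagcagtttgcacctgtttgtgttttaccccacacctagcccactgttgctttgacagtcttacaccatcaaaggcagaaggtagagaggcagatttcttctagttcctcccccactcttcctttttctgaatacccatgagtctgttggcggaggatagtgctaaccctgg
The core occurs 2 times in the upstream Il1rl1 window, 1 time in the downstream one, 1 time in that of Cd3g and 0 times in that of Cd3d. Of 32851 mouse windows of the same length, 25.4% hold it at least once and 5.27% at least 2 times, so a match is common. It describes letters and shows neither binding nor its absence.

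The ILC3-like group was the smallest, with 9 barcodes, 4 and 2 in NdpKO replicates 1 and 2 and 3 and 0 in NdpWT replicates 1 and 2. It was named from Il22, Ccr6 and Cxcr5, and its other leading genes were Nrgn (1505 against 66.9 CPM), Tmem176a, a membrane protein (1881 against 158 CPM), and Tox2. Il22 was found in 3 and Ccr6 in 5. Tcrg-C1 and Trbc2 were found in all 9 and Cd4 in 3, with none of Cd3d, Cd3e or Cd3g, which in 9 barcodes allows a share of up to 33.3%. The numbers are too small for a comparison of genotypes.

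A group of 29 barcodes was left unnamed because its leading genes mix types: the Ly49 receptors Klra1 (435 against 3.09 CPM) and Klra7 (334 against 21.1 CPM), Ly6c2 (1032 against 57.1 CPM), Ccl5 (3057 against 340 CPM), Cd160 (365 against 53.0 CPM) and Nkg7 (1059 against 187 CPM). Nkg7 was found in all 29, Cd3e in 25, Trac in 19, Klrb1c in 13, Tcrg-C1 in 13 and Ifng in 16, so killer receptor and T cell receptor transcripts stood side by side. Fixed markers had named this group gamma delta T-like, from Tcrg-C4, Trgv2 and Trdc. NdpKO replicate 2 gave 22 of the 29, against 2 in NdpKO replicate 1 and 1 and 4 in NdpWT replicates 1 and 2. Per 1000 kept barcodes the group numbered 0.351 and 2.02 in NdpKO and 0.107 and 0.312 in NdpWT. The lower NdpKO library lay just above the higher NdpWT library. A further 31 barcodes were led by histone genes such as Hist1h1b (1026 against 37.9 CPM) together with neuronal ones such as Neurod1 (305 against 19.5 CPM) and Stmn2 (386 against 34.9 CPM), with a median of 13506 UMIs. They came as 6 and 13 from NdpKO and 5 and 7 from NdpWT, and Cd3g was found in 22 and Mki67 in 23. The last 11, with a median of 26379 UMIs, were led by vessel and stromal genes such as Cldn5 (1172 against 23.3 CPM), Sparc and Dcn, and came as 1 and 4 from NdpKO and 1 and 5 from NdpWT. Scrublet called 1 lymphoid barcode a doublet. The part of mixed droplets in the unnamed groups was not tested.

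**Figure D3:**
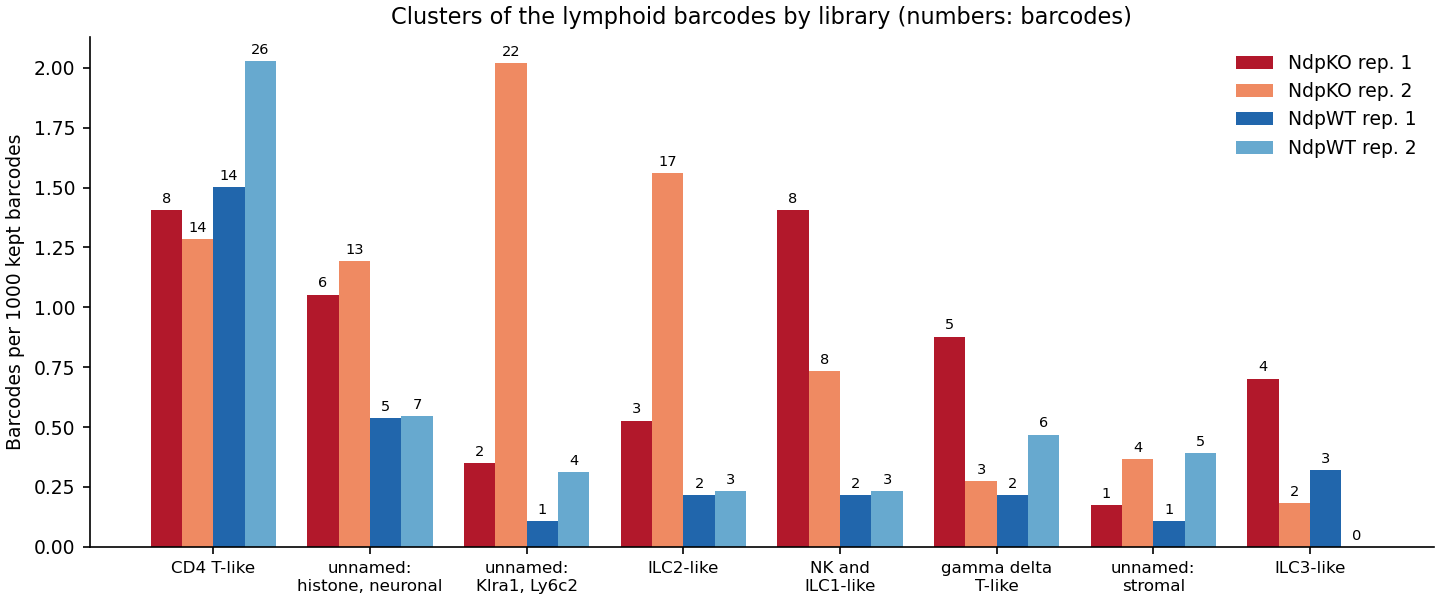
Barcodes per 1000 kept barcodes in each of the 8 groups of lymphoid barcodes, by library, with the number of barcodes above each bar. The NK and ILC1-like group (8 and 8 against 2 and 3 barcodes) is higher in both NdpKO libraries, and most barcodes of the ILC2-like group (17 of 25) and of the unnamed group led by Klra1 and Ly6c2 (22 of 29) come from NdpKO replicate 2.

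**Figure D4:**
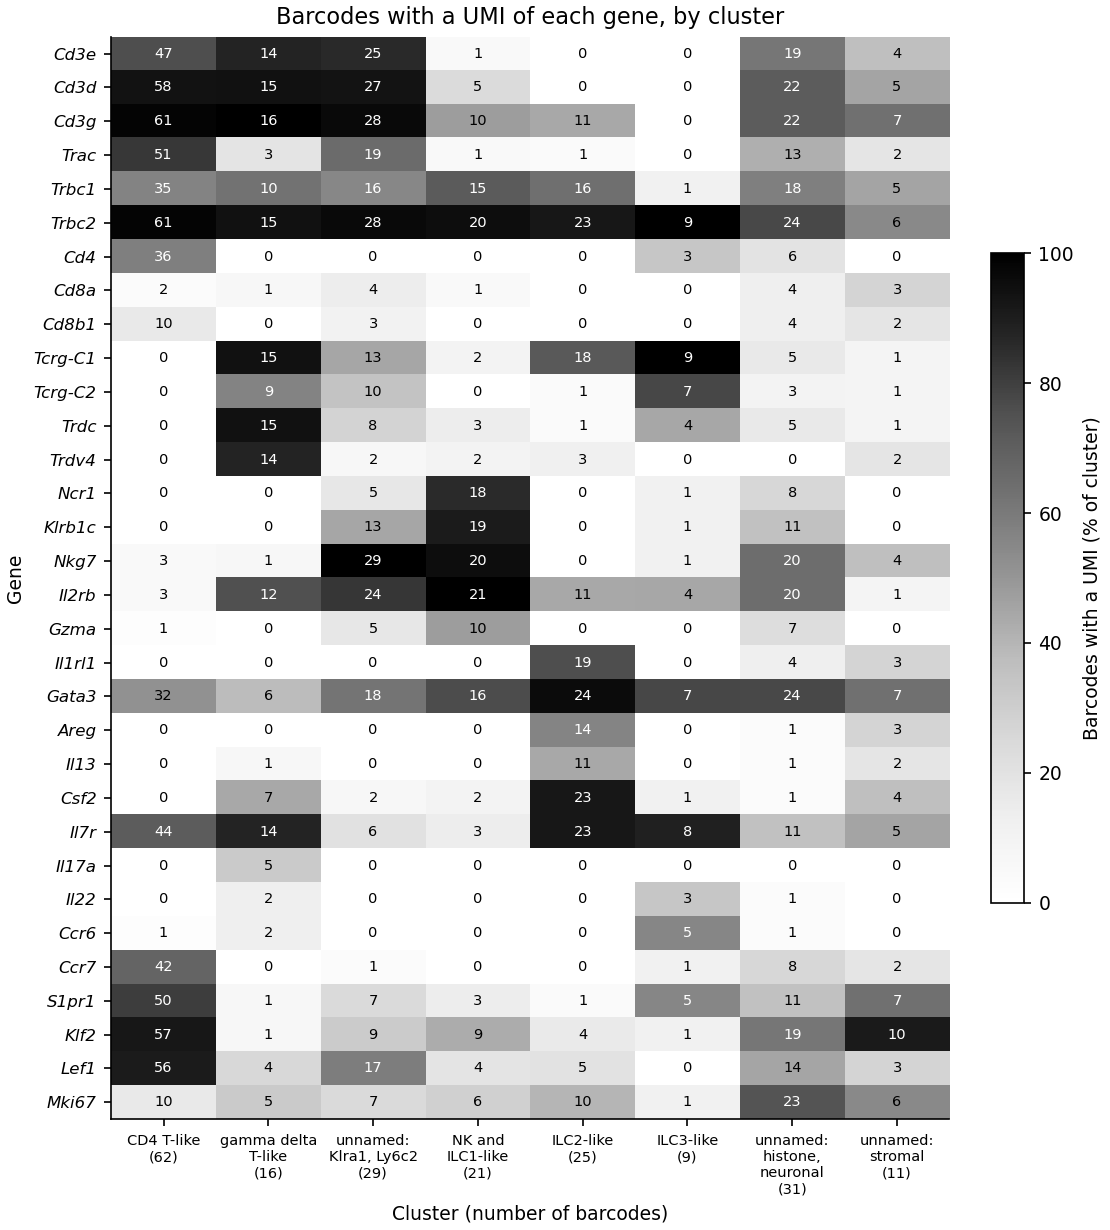
Number of barcodes with a UMI of each gene in each group (shade: percent of the group). Cd3e and Cd3d are at 0 in the ILC2-like and ILC3-like groups, where Trbc2 is in 23 of 25 and 9 of 9 and Tcrg-C1 in 18 and 9; Cd4 is mostly in the CD4 T-like group (36 barcodes).

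Cycling genes were found in every group of lymphoid barcodes. At least 3 of 8 cycling genes were found in 54 of 204 lymphoid barcodes (26.5%), among them 23 of the 31 led by histone genes, 8 of the 25 ILC2-like, 6 of the 21 NK and ILC1-like, 5 of the 62 CD4 T-like and 1 of the 16 gamma delta T-like barcodes. By library they were 21.6% (8 of 37) and 32.5% (27 of 83) in NdpKO replicates 1 and 2, and 20% (6 of 30) and 24.1% (13 of 54) in NdpWT replicates 1 and 2. Thinned to 3000 UMIs, they were 11.1% and 21.0% in NdpKO and 0 of 29, which allows up to 10.3%, and 18% in NdpWT. The genotypes overlapped on both scales.

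NdpKO was compared with NdpWT on UMIs summed over the lymphoid barcodes of each library, with 522605 and 930532 UMIs in NdpKO replicates 1 and 2 and 348682 and 370311 UMIs in NdpWT replicates 1 and 2. By edgeR's quasi-likelihood test with Benjamini-Hochberg adjustment, 0 of 5970 genes passed the 0.05 threshold (0%), 379 had an unadjusted p under 0.05 (6.35%), and DESeq2 called 6 (0.101%). In counts simulated at these depths, 62 of 89 genes changed by 2 on the log2 scale were called, and 7 of 88 changed by 1. The simulation gave every gene the same dispersion (0.0718). It held no gene-specific spread and no sums resting on 1 barcode. These shares therefore do not measure the power of the test on the real counts. Both NdpKO libraries were above both NdpWT libraries for 1038 genes (17.4%) and below both for 1154 (19.3%), and the counts of members below are to be read against these shares. A gene entered the test where 2 libraries reached the filter's minimum, so some genes entered through 1 genotype alone. For these the order of the genotypes was partly set by the filter, and with it the counts and medians of the lists below. The median log2 ratio of NdpKO over NdpWT over all tested genes was 0.0041. Fewer cells of a type and less RNA per cell cannot be told apart in such sums.

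Of the killer cell genes (granzymes, killer receptors and their partners), 11 of 20 had counts enough to be tested. None of the 11 passed the test, 8 had both NdpKO libraries above both NdpWT libraries, 0 had both below, and the median log2 ratio was 1.15. Klrc1, among the 8, entered the test through NdpKO alone. Without barcodes over 50000 UMIs the median was 0.99, with 6 of 11 higher in both. With at least 3 rule genes it was 0.79, with 6 of 11 higher. Without the groups led by histone and neuronal or by stromal genes it was 0.86, with 5 of 10 higher. Klrd1 (CD94), the partner of NKG2 receptors, had 281 and 288 CPM in NdpKO replicates 1 and 2, against 48.8 and 108 CPM in NdpWT replicates 1 and 2 (log2 1.88 ± 0.36 SE, edgeR adjusted p = 0.403). Both NdpKO libraries were higher, and the difference did not pass. Nkg7, a rule gene, had 295 and 369 CPM in NdpKO and 103 and 192 CPM in NdpWT (log2 1.20 ± 0.32, edgeR adjusted p = 0.564). Gzma overlapped, with 467 and 301 CPM in NdpKO and 5.74 and 348 CPM in NdpWT, where replicate 1 had 2 UMIs.

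Among cytokines, 9 of 20 could be tested, 0 passed, 5 had both NdpKO libraries higher and 0 both lower, with a median of 0.91. Areg and Il13, among the 5, entered the test through NdpKO alone, so this count and median were partly set by the filter. The median was 0.34 without barcodes over 50000 UMIs, where 4 of 8 genes were higher in both, and 0.26 with at least 3 rule genes, where 3 of 8 were. Areg had the lowest p of all 5970 genes, with 42 and 58 UMIs (80.4 and 62.3 CPM) in NdpKO replicates 1 and 2 and 1 and 2 UMIs (2.87 and 5.40 CPM) in NdpWT replicates 1 and 2, a log2 ratio of 4.03 ± 0.54 (unadjusted p = 7.7e-05, edgeR adjusted p = 0.403). In the NdpKO libraries 41 and 52 of these UMIs came from 2 and 10 ILC2-like barcodes. The highest single barcode held 32 of the 42 Areg UMIs in NdpKO replicate 1 and 31 of the 58 in NdpKO replicate 2. Without the groups led by histone and neuronal or by stromal genes, Areg passed (log2 4.31, edgeR adjusted p = 0.0122), as did Ly6c2 (log2 2.69, edgeR adjusted p = 0.0122), and these 2 were the only genes that did in that fit. Of the 72 and 239 UMIs of Ly6c2 in NdpKO replicates 1 and 2, a single barcode gave 62 and 31. Ifng, the cytokine of NK cells and ILC1, had 97.6 and 127 CPM in NdpKO and 22.9 and 45.9 CPM in NdpWT (log2 1.73 ± 0.39, edgeR adjusted p = 0.487). Il13 had 68.9 and 25.8 CPM in NdpKO and 14.3 and 8.10 CPM in NdpWT (log2 2.01 ± 0.67, edgeR adjusted p = 0.658), and 35 of the 36 UMIs of NdpKO replicate 1 came from 1 barcode. Csf2 overlapped, with 264 and 155 CPM in NdpKO and 209 and 13.5 CPM in NdpWT, where 66 of the 73 UMIs of replicate 1 came from 1 barcode.

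The TCR and CD3 complex varied by chain. Of 11 genes, all tested, 0 passed, and 3 had both NdpKO libraries higher: Tcrg-C1, Tcrg-C2 and Tcrg-C4. Of these, Tcrg-C2 and Tcrg-C4 entered the test through NdpKO alone. Tcrg-C1 had 260 and 160 CPM in NdpKO replicates 1 and 2 and 106 and 70.2 CPM in NdpWT replicates 1 and 2 (log2 1.26 ± 0.34, edgeR adjusted p = 0.564). The alpha beta and CD3 genes overlapped: Trbc2 had 760 and 742 CPM in NdpKO and 714 and 926 CPM in NdpWT, Cd3g had 411 and 373 CPM in NdpKO and 290 and 535 CPM in NdpWT, and Cd3e had 209 and 139 CPM in NdpKO and 161 and 149 CPM in NdpWT. These 3 are rule genes, so their levels are partly set by the selection. Trbc2 was also found in 23 of 25 ILC2-like barcodes. Cd3d, which is not a rule gene, had 369 and 344 CPM in NdpKO and 318 and 532 CPM in NdpWT. The median of the 11 was 0.14, with 0 genes lower in both NdpKO libraries. Without barcodes over 50000 UMIs it was -0.092 with 4 genes lower in both, and with at least 3 rule genes -0.26 with 5 lower in both. Of 15 signalling genes, 0 passed, 3 had both NdpKO libraries higher and 6 both lower, among them the coreceptors Cd28 (57.4 and 66.6 CPM in NdpKO, 83.2 and 159 CPM in NdpWT) and Cd5 (17.2 and 47.3 CPM in NdpKO, 68.8 and 81.0 CPM in NdpWT). Their median was -0.17, and -0.41 without barcodes over 50000 UMIs, with 2 of 15 higher and 7 lower. It was -0.61 with at least 3 rule genes, with 1 of 14 higher and 8 lower. Without the groups led by other cell types it was -0.65, with 1 of 14 higher and 7 lower.

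Of 16 lineage transcription factors tested, 0 passed, 6 had both NdpKO libraries higher and 4 both lower. Without barcodes over 50000 UMIs, 4 of 17 were higher in both and 4 lower. With at least 3 rule genes, 3 of 16 were higher and 3 lower. Without the groups led by other cell types, 4 of 13 were higher and 5 lower. Id2, an inhibitor of E proteins needed by innate lymphoid cells, had 687 and 635 CPM in NdpKO replicates 1 and 2 and 272 and 286 CPM in NdpWT replicates 1 and 2 (log2 1.26 ± 0.22, edgeR adjusted p = 0.403). Its relative Id3 had 103 and 105 CPM in NdpKO and 376 and 251 CPM in NdpWT (log2 -1.56 ± 0.29, edgeR adjusted p = 0.403), so the pair stood in opposite order. For Id3, 107 of the 131 UMIs in NdpWT replicate 1 came from 1 barcode, and the log2 ratio was -0.84 without barcodes over 50000 UMIs. Lef1 had 97.6 and 103 CPM in NdpKO and 189 and 227 CPM in NdpWT (log2 -1.02 ± 0.25, edgeR adjusted p = 0.564). Gata3, a rule gene, had 176 and 179 CPM in NdpKO and 120.5 and 124 CPM in NdpWT. Rora, a factor of ILC2, had 400 and 235 CPM in NdpKO and 132 and 186 CPM in NdpWT.

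Of 12 cytokine receptors tested, 0 passed, 5 had both NdpKO libraries higher and 0 both lower, with a median of 0.62. Il2ra, among the 5, entered the test through NdpKO alone. The median of the receptors was 0.45 without barcodes over 50000 UMIs and 0.27 with at least 3 rule genes. It was 0.26 without the groups led by other cell types, where 4 of 10 were higher in both and 2 lower. Il2rb, a rule gene and the receptor chain on which NK cells depend, had 260 and 231 CPM in NdpKO replicates 1 and 2, against 71.7 and 108 CPM in NdpWT replicates 1 and 2 (log2 1.47 ± 0.28, edgeR adjusted p = 0.403). Both NdpKO libraries were higher for Il2rb, which did not pass. The IL-2 receptor chain Il2ra had 89.9 and 46.2 CPM in NdpKO replicates 1 and 2 and 17.2 and 18.9 CPM in NdpWT replicates 1 and 2. Il1rl1 had 45.9 and 99.9 CPM in NdpKO and 22.9 and 10.8 CPM in NdpWT (log2 2.17 ± 0.57, edgeR adjusted p = 0.564). The 24 UMIs of Il1rl1 in NdpKO replicate 1 came from 2 barcodes, and 2 barcodes carried it in each NdpWT library. Il7r overlapped, with 276 and 142 CPM in NdpKO and 178 and 294 CPM in NdpWT. Of 9 genes of homing and exit tested, 0 passed, 2 were higher in both NdpKO libraries, among them the inflammatory receptor Ccr2, and 3 were lower, Ccr7, S1pr1 and Klf2. The median of the 9 homing and exit genes was -0.13. Without barcodes over 50000 UMIs 11 genes were tested, with a median of 0.22, 3 higher in both and 4 lower. With at least 3 rule genes the median of 11 was 0.031, with 2 higher and 5 lower. Without the groups led by other cell types the median of 9 was -0.62, with 3 higher and 5 lower. Klf2 had 145 and 155 CPM in NdpKO and 476 and 308 CPM in NdpWT (log2 -1.36 ± 0.29, edgeR adjusted p = 0.487), and S1pr1 had 74.6 and 41.9 CPM in NdpKO and 141 and 143 CPM in NdpWT (log2 -1.29 ± 0.34, edgeR adjusted p = 0.564).

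Within the CD4 T-like group alone, with 8, 14, 14 and 26 barcodes, some of these genes stood differently. Klf2 there had 798 and 914 CPM in NdpKO replicates 1 and 2 and 848 and 646 CPM in NdpWT replicates 1 and 2, and S1pr1 had 329 and 317 CPM in NdpKO and 336 and 343 CPM in NdpWT. Klf2 overlapped between the genotypes, and the S1pr1 values differed by less than their counting intervals. This group held 51 of 76 and 72 of 144 Klf2 UMIs of NdpKO and 63 of 166 and 83 of 114 of NdpWT. For S1pr1 it held 21 of 39 and 25 of 39 in NdpKO and 25 of 49 and 44 of 53 in NdpWT. NdpWT replicate 1 also holds the barcode of 121212 UMIs, whose share of the Klf2 and S1pr1 UMIs is not given here. Lef1 stood in the opposite order, with 673 and 736 CPM in NdpKO and 417 and 483 CPM in NdpWT. Id3 had 93.9 and 127 CPM in NdpKO and 175 and 202 CPM in NdpWT, on 6 to 26 UMIs, with counting intervals that overlapped. The CD4 T-like group was 21.6% and 16.9% of lymphoid barcodes in NdpKO replicates 1 and 2 and 46.7% and 48.1% in NdpWT replicates 1 and 2, and its part in the summed levels of Klf2, S1pr1 and Lef1 was not tested.

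Of the MHC class I genes, which present peptides to CD8 T cells, all 12 were tested, 0 passed, 10 had both NdpKO libraries higher and 0 both lower, with a median of 0.54. B2m, the light chain, had 1921 and 1019 CPM in NdpKO replicates 1 and 2 and 717 and 751 CPM in NdpWT replicates 1 and 2 (log2 1.01 ± 0.30, edgeR adjusted p = 0.584). The heavy chain gene H2-K1 had 1188 and 991 CPM in NdpKO and 639.6 and 870 CPM in NdpWT, and the median of the 12 was 0.32 without barcodes over 50000 UMIs, where 7 did not overlap. It was 0.25 with at least 3 rule genes and 0.25 without the groups led by other cell types, where 5 did not overlap in either. Within the CD4 T-like group B2m overlapped, with 1298 and 952 CPM in NdpKO and 1023 and 880 CPM in NdpWT, as did H2-K1, with 907 and 1053 CPM in NdpKO and 969 and 1012 CPM in NdpWT. Of 8 interferon response genes tested, 0 passed, 1 had both NdpKO libraries higher and 2 both lower, with a median of 0.039. The interferon median was -0.083 without barcodes over 50000 UMIs and -0.23 with at least 3 rule genes, each with 1 of 8 higher and 2 lower. It was -0.42 without the groups led by other cell types, where 0 of 5 were higher in both and 3 lower.

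Of 14 cell cycle genes tested, 0 passed, 7 had both NdpKO libraries higher and 0 both lower, with a median of 1.41. Top2a had 178 and 393 CPM in NdpKO replicates 1 and 2 and 63.1 and 143 CPM in NdpWT replicates 1 and 2 (log2 1.51 ± 0.55, edgeR adjusted p = 0.752). Without the histone-led and stromal-led groups, 6 genes remained testable, 1 had both NdpKO libraries higher, 1 both lower, and the median was 0.10. There the log2 ratio was -0.18 for Top2a and -0.88 for Hist1h1b, which stood at 1.54 over all lymphoid barcodes. The histone-led group was itself led by Hist1h1b, and 23 of its 31 barcodes carried at least 3 cycling genes. Leaving it out thus removed cycling barcodes by construction, and the lower median does not show which cells the cycling transcripts came from. Cd3g was found in 22 of these 31. Of 10 tissue residence genes tested, 0 passed, 4 had both NdpKO libraries higher and 1 both lower (median 0.54, and 0.26 without the groups led by other cell types), and of 14 dissociation stress genes 0 passed, 3 were higher in both and 1 lower (median 0.14). Of 10 fetal and neonatal lymphocyte genes, 1 was tested, Igf2bp3, with 28.7 and 27.9 CPM in NdpKO and 20.1 and 24.3 CPM in NdpWT.

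DESeq2 called 6 genes, of which 4 were higher and 2 lower in NdpKO. Tyrobp, the adaptor DAP12 of NK and myeloid receptors, had 383 and 365 CPM in NdpKO replicates 1 and 2 and 66.0 and 129.6 CPM in NdpWT replicates 1 and 2 (log2 1.95 ± 0.32, edgeR adjusted p = 0.403, DESeq2 adjusted p = 0.0178), on 200 and 340 UMIs in NdpKO, of which a single barcode gave 47 and 44. The MHC class II gene H2-Ab1 had 126 and 70 UMIs in NdpKO and 1 and 1 in NdpWT, and DESeq2 called it with Cd74 and H2-Eb1 (adjusted p = 0.0054 for H2-Ab1). For Cd74, H2-Ab1, H2-Aa and H2-Eb1 together, 1 barcode gave 707 of the 712 UMIs in NdpKO replicate 1 and 1 barcode gave 306 of the 330 UMIs in NdpKO replicate 2. The lower calls were Slc16a1, a monocarboxylate transporter, and Higd1b. Slc16a1 had 10 and 30 UMIs in NdpKO and 92 and 40 UMIs in NdpWT (log2 -2.82, DESeq2 adjusted p = 0.0178), and 86 of the 92 came from 1 barcode. Higd1b had 0 and 0 UMIs in NdpKO and 26 and 9 UMIs in NdpWT (DESeq2 adjusted p = 0.0178), with all 26 from 1 barcode. The genes with the lowest p-values (Areg, Tyrobp, Id2, Id3, Ly6c2, Klrd1 and H2-Ab1), DESeq2's calls and the list members Ifng, Il13, Il2ra, Cd5, Cd28, Lef1 and S1pr1 were singled out after their values were seen.

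**Figure D5:**
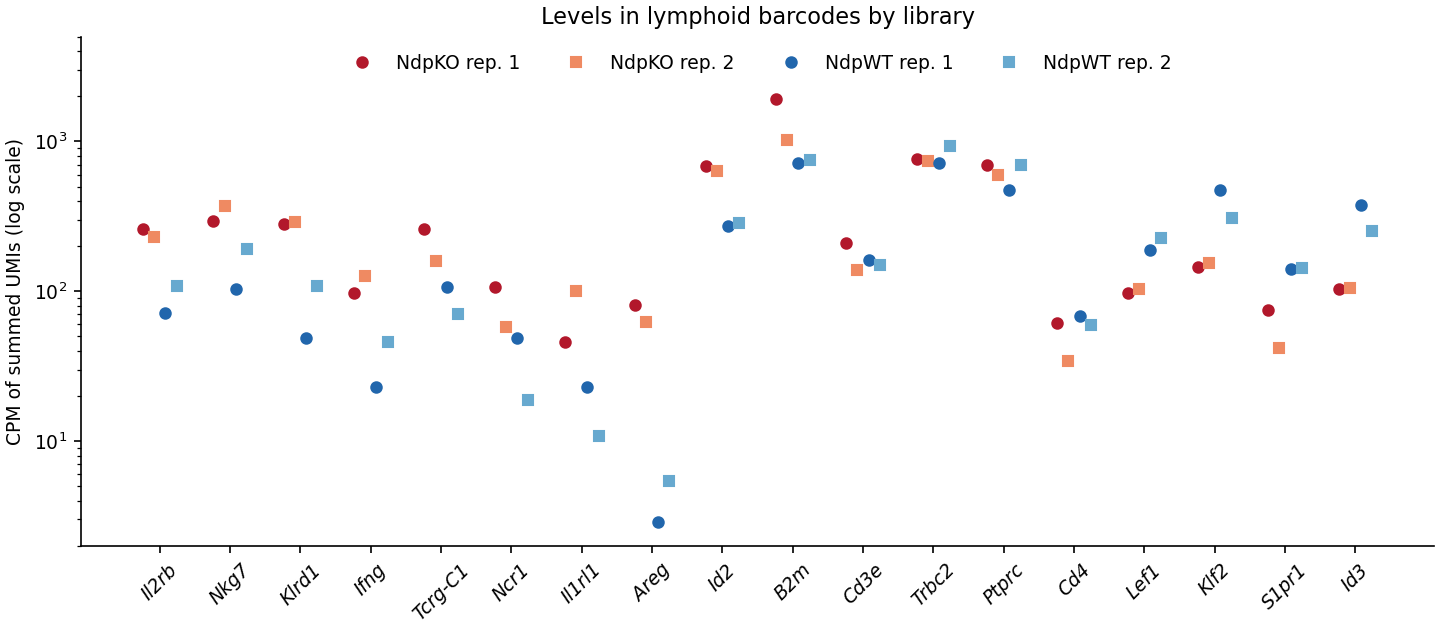
Level of 18 genes in the lymphoid barcodes of each library, in CPM on a log axis. The genes from Il2rb to Id2, which are genes of killer cells and ILC and the receptor gene Tcrg-C1, and B2m are higher in both NdpKO libraries. Cd3e, Trbc2, Ptprc and Cd4 overlap, and Lef1, Klf2, S1pr1 and Id3 are lower in both NdpKO libraries. None of the 18 passed the edgeR test, and the level of Il1rl1 in NdpKO replicate 1 rests on 2 barcodes. Gzma, Ccl5 and Csf2, also genes of killer cells or ILC, overlapped and are not drawn.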

How the data were processed

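Each library's deposited matrix holds raw UMI counts for genes by barcodes. The submitters' processing notes name Cell Ranger 6.1.2 and mm10. No source used here states a step against doublets or free RNA. Of 32285 features, 32158 matched GENCODE M21 (GRCm38) by identifier, which gave the coordinates. The barcodes and lists were chosen with earlier results of these data known. No doublets were removed from the lymphoid barcodes. Scrublet (scanpy 1.11.5) called 0% to 2.29% of kept barcodes, so doublets remain.

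CPM are UMIs of a gene per 1000000 UMIs summed over the lymphoid barcodes of a library. These sums were compared with edgeR 4.0.16 in R 4.3.3 (robust quasi-likelihood test, TMM, filterByExpr with a minimum count of 10, genotype as the only term, threshold 0.05). The fit was tested on counts simulated with 1 dispersion for all genes. DESeq2 1.42.0, other filters, the replicate block and left-out libraries were alternatives. P-values rest on 2 pools per genotype. The replicate number is not tied to litters by the labels, so it was no block in the test. Counts of every pair of libraries differed far beyond sampling noise. Lymphoid barcodes were scaled to 10000, reduced to 1000 variable genes and 15 components and clustered by Leiden (leidenalg 0.10.2, 12 neighbours, resolution 1). A group was named where at least 3 fixed markers of a type stood in its top 50 genes by fold and its top 10 held no larger number for another type. A group whose leading genes went against that name or mixed types stayed unnamed. The names set aside were gamma delta T, granule neuron lineage and fibroblast. Named genes are the rule, subset and leading genes, genes past the threshold and the most abundant members of each list. Others named in the report were singled out after their values were seen. Some genes of the lists are counted but not reported here by name.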

Additional observations from a re-analysis of the deposited data

How the results depend on the processing

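With 2 pools per genotype the share of lymphoid barcodes could not pass its test under any setting; NdpKO stayed higher in all of them, with a log2 ratio of 0.926 as reported and 0.745 to 1.13 with a library left out. In percentage points (NdpKO minus NdpWT), the Cd8a or Cd8b1 share differed by -4.00 as reported, -0.19 thinned to 1000 UMIs, -6.31 with no UMI of C1qa or Mrc1, -6.42 without the groups led by other cell types and -6.54 thinned to 3000 UMIs. For Tcrg-C1 or Trdc these were 27.8 as reported, 11.9 thinned to 1000, 31.6 without those groups and 20.9 thinned to 3000. Thinned to 1000 UMIs, Ncr1 differed by 10.4 and Il1rl1 by 0, and Il1rl1 differed by 0.22 without NdpKO replicate 2.

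The number of genes called was 0 with edgeR as reported, 6 with DESeq2, 214 with no filter beyond 1 UMI, 1 with at least 3 rule genes and 2 without the groups led by other cell types. It was 1 to 70 with a library left out, where the genotype with a lone library is assumed to vary like the other. The fit with the replicate block called 28, among them Areg, Il2rb, Klrd1, Id2, Id3, Ly6c2 and Top2a. The numbers are not tied to litters by the labels, and same-numbered libraries deviated together only weakly (correlation 0.149), so the block is no design fact. The cause of these changes was not tested.

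No log2 ratio that changed sign passed the test in the fit where it did. With at least 3 rule genes they were -0.26 for Cd3e, -0.18 for Ptprc, -0.043 for Ltb, -0.020 for Ifngr1, 0.48 for Itgb1, -0.10 for Itga4 and -0.25 for Ifi203. Without barcodes over 50000 UMIs they were -0.092 for Cd3e, -0.054 for Ptprc, 0.15 for Itgb1 and -0.11 for Ifi203. Without the groups led by other cell types they were -0.21 for Ptprc, -0.094 for Ifngr1, 0.18 for Itgb1, -0.11 for Itga4, -0.42 for Ifi203, -0.088 for Stmn1, -0.88 for Hist1h1b and -0.18 for Top2a. With no filter they were 0.019 for Cd3g and 0.0069 for Itgb1, and with the replicate block 0.0020 for Cd3g. With a library left out the ranges were -0.079 to 0.45 for Cd3e, -0.39 to 0.47 for Cd3g, -0.24 to 0.11 for Trbc2, -0.65 to 0.24 for Il7r, -0.057 to 0.47 for Ptprc, -0.52 to 0.20 for Cd3d, -0.53 to 0.15 for Fyn, -0.43 to 0.35 for Cd2, -0.77 to 0.20 for Tcf7, -0.15 to 0.79 for Ifngr1, -0.11 to 1.34 for Cxcr6, -0.10 to 0.039 for Itgb1, -0.096 to 0.35 for Ifi203, -0.20 to 0.037 for Jund and -0.41 to 0.43 for Stmn1. The settings without barcodes over 50000 UMIs, without those groups and thinned to 3000 were chosen after seeing the data.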
